A study of Homo sapiens with 6 samples.

Results

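The vehicle state of NCI-H226, a human pleural mesothelioma cell line, was described from the 3 libraries of cells kept in DMSO for 24 h, out of 6 libraries in the series. These libraries were chosen by their treatment label alone, and every gene of the deposited table was kept. The other 3 libraries came from the same line given the compound HC278 and were not used in any value below. All cells grew in DMEM with 10% fetal bovine serum. Polyadenylated RNA was read with a stranded library kit, so each value is an average over a bulk culture, in which fewer cells of a type and less RNA per cell cannot be told apart. The labels number the libraries 1, 2 and 3 without saying whether they came from separate cultures, and the SDs then measure only the spread between these samples.

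Mesothelioma arises from the mesothelium, the sheet of cells that lines the pleura and peritoneum. Mesothelial cells are unusual in carrying epithelial keratins together with vimentin, a filament of mesenchymal cells, and in using regulators such as WT1. Tumours of this lineage rarely carry activated oncogenes and more often lose tumour suppressors, above all CDKN2A on chromosome 9, BAP1 on chromosome 3 and NF2 on chromosome 22, the gene for merlin, which restrains YAP1 and the TEAD factors through the Hippo pathway. DMSO is the solvent in which compounds are given, and the cells given it alone serve as the untreated reference.

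The regulatory sequences of 4 genes are shown first, because the results turn on suppressor genes with few reads and on hair keratins that were read in quantity. Each is the 250 bases before the RefSeq start of the gene in GRCh38.p14, written 5′ to 3′ on the strand of the gene. NF2 lies on the plus strand (chr22:29603383-29603632) and CDKN2A on the minus strand (chr9:21995325-21995574), and capitals mark CG dinucleotides in these sequences, 31 in NF2 and 24 in CDKN2A. KRT34 (chr17:41382307-41382556) and KRT33B (chr17:41369814-41370063), both on the minus strand, hold no CG, and capitals mark the motif TATAAA, which begins 31 bases before the start in KRT34 and 28 bases before it in KRT33B.
NF2: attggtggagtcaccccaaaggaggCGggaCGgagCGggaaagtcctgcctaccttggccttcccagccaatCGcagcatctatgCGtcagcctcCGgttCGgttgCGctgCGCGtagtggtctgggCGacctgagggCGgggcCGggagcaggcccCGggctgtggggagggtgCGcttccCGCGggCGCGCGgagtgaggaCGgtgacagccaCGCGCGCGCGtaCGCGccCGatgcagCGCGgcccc
CDKN2A: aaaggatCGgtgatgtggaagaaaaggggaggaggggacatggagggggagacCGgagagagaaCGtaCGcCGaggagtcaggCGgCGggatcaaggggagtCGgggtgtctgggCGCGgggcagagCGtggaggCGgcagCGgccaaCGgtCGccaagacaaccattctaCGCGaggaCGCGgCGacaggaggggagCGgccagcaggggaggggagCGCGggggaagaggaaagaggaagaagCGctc
KRT34: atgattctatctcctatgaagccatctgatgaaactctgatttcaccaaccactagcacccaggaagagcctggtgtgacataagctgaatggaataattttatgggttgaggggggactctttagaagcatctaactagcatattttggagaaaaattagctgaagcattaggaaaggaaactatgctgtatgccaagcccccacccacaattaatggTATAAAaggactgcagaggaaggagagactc
KRT33B: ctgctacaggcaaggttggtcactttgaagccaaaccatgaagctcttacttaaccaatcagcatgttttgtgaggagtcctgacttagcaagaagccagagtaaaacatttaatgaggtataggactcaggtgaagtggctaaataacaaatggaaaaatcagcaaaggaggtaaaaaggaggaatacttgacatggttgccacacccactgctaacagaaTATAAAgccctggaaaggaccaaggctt

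Transcript levels are given as TPM, a level that is scaled to library depth and divided by gene length, as the authors computed it, so that genes can be ordered. A gene was counted as read throughout when it reached 1 TPM in all 3 libraries, and as under the floor when it had fewer than 3 counts in each of them. DMSO 1, 2 and 3 held 32617373, 33181814 and 32532357 counts, so that 3 counts stood for 0.0904 to 0.0922 CPM (counts scaled to library depth alone). Floors cover counting error only. DMSO 3 stood apart along gene length: over 10739 protein-coding genes with a mean of at least 100 counts, the median log2 deviation of the 2685 longest was -0.18 in DMSO 1, -0.09 in DMSO 2 and 0.27 in DMSO 3. In the 2685 shortest these medians were 0.03, 0.01 and -0.05. The chi-square per degree of freedom was 4.02 between DMSO 1 and 2, 47.8 between 1 and 3, and 31.6 between 2 and 3. Without DMSO 3, none of 223 levels examined changed by more than 1.30 times, and whether RNA quality or library preparation had a part in its deviation was not tested.

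Of 60676 genes in the table, 13015 were read throughout. Among protein-coding genes these were 11286 of 19915, or 56.7%, while 27.6% were under the floor and 18.3% had no count in any library. The 10 highest genes together took 17.9% ± 0.395 of all TPM (SD, n = 3), the 100 highest 39.6% ± 1.08 and the 1000 highest 69.9% ± 1.65. Protein-coding genes held 94.3% ± 0.178 of TPM.

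Transcripts of the mitochondrial genome led the list. MT-CO2, a catalytic subunit of cytochrome oxidase, averaged 32290 ± 911 TPM, followed by MT-CO1 at 25801 ± 2231 and MT-CO3 at 22223 ± 497, which encode other core subunits of that enzyme. MT-ND4 of complex I averaged 20553 ± 1294 TPM and MT-ATP6 of the ATP synthase 16236 ± 582. All 13 mitochondrial mRNAs were read throughout, with a median of 8039 TPM, and 10 of them stood among the 30 highest genes. MT-ND2, MT-ND3, MT-CYB, MT-ND1 and MT-ND4L completed those 10, and both mitochondrial ribosomal RNAs, MT-RNR2 at 8120 ± 391 TPM and MT-RNR1 at 2984 ± 130, were there as well. MT-ND4L differed most between libraries, at 2225, 2681 and 4650 TPM, and it overlaps MT-ND4 on the same strand. Parts of the mitochondrial genome are copied in the nucleus, and 49.5% of the 50-base words of MT-CO1 also occur in other genes, so how reads were divided between them is not known here. Mitochondrial genes held 16.6% ± 0.676 of TPM.

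The nuclear transcripts at the top encode iron storage, actin handling, glycolysis and translation. FTL, the light chain of the iron store ferritin, reached 22980, 22221 and 19917 TPM in DMSO 1, 2 and 3, and FTH1, the heavy chain with the ferroxidase site, 8311, 8241 and 6698. Light chain exceeded heavy chain in every library, at 73.7% ± 0.979 of ferritin TPM. By counts without length the light chain held only 55.0% ± 1.26. Of the 50-base words, 18.3% of those of FTL and 19.9% of those of FTH1 also occur in other genes. TMSB10, a thymosin that holds actin monomers, stood at 13354, 12423 and 9419 TPM, lowest in DMSO 3. GAPDH of glycolysis averaged 10506 ± 467 TPM, EEF1A1, which brings aminoacyl-tRNA to the ribosome, 7948 ± 310, ACTB, cytoplasmic beta actin, 5034 ± 202, and PFN1, the actin binder profilin, 3121 ± 340.

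Ribosomal protein genes, paralogues such as RPL22L1 and RPS27L included, held 10.1% ± 1.03 of TPM. Of 86 genes 84 were read throughout, where 56.7% of all protein-coding genes were. The exceptions were the paralogues RPL10L, at 0, 0 and 1 counts, and RPL3L, at 0, 1 and 0. Those among the 30 highest were RPS2 at 4649 ± 403 TPM, RPS12, RPL41, RPL19, RPLP0, RPL8 and RPL7A. EEF1G, a subunit of the elongation factor that recharges EEF1A1, averaged 2842 ± 153 TPM, but 95.8% of its 50-base words also occur in other genes. AC116533.1, a processed pseudogene, averaged 3469 ± 327 TPM with 100% of its words shared, so that its level cannot be assigned to the locus. BCYRN1, a short RNA made by RNA polymerase III, stood at 9337, 11478 and 8006 TPM in these libraries made from polyadenylated RNA.

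**Figure D1:**
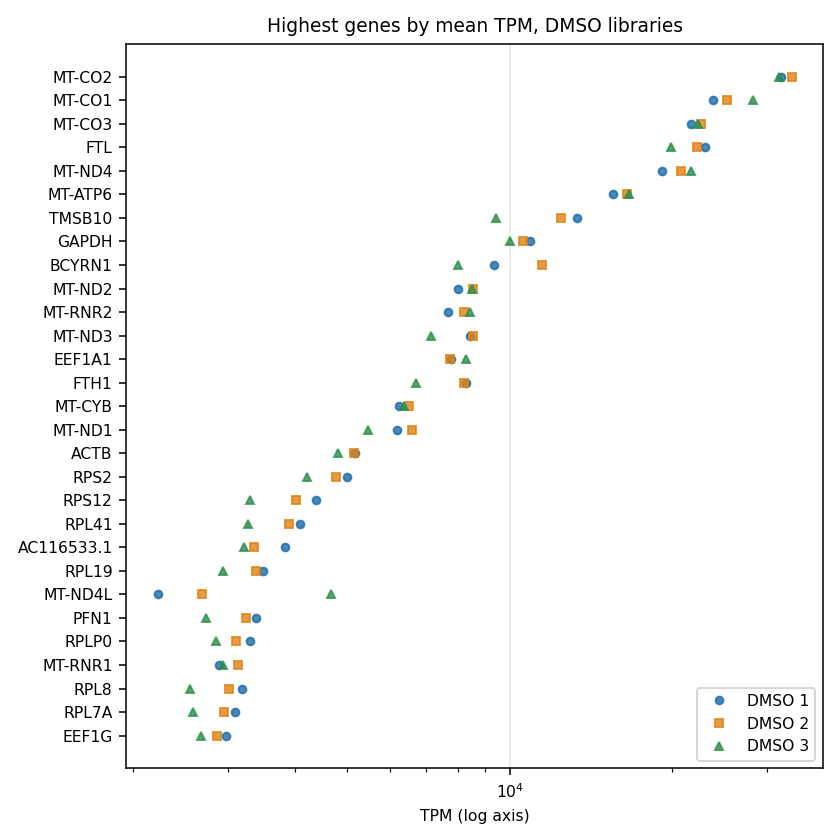
Levels of 29 of the 30 highest genes in TPM on a log axis, with points for DMSO 1, 2 and 3. Mitochondrial mRNAs take 10 of the 30 places, and FTL and TMSB10 lead the nuclear genes.

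The mesothelial label was checked against 23 markers, of which 16 were read throughout. Over all protein-coding genes that share was 56.7%, so the count by itself does not set the list apart, and the levels of the defining markers are given in each library. Mesothelin (MSLN, chr16:760734-768865, plus strand, coordinates as deposited, hg38), the surface protein used to recognise mesothelial tumours, stood at 123, 116 and 102 TPM. CALB2, the calcium binder calretinin, stood at 22.7, 21.8 and 19.5 TPM, and WT1, a zinc finger regulator of the mesothelium, at 8.26, 9.03 and 11 TPM. All 3 defining markers were thus present in each library, MSLN highest and WT1 lowest, with no overlap between their ranges. Among other surface or secreted markers, EFEMP1, a fibulin of the matrix, averaged 147 ± 27.0 TPM, the uroplakin UPK3B 92.1 ± 6.04, the mucin-like PDPN 62.1 ± 1.67, the claudin CLDN15 54.2 ± 0.722 and HEG1, a mucin-like membrane protein, 53.2 ± 15.2.

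Lower down stood UPK1B at 16.8 ± 1.40 TPM, LRRN4 at 3.49 ± 0.301 and the lectin ITLN1 at 2.08 ± 0.0829. The transcription factors of the list were led by BNC1 at 77.6 ± 18.2 TPM, with GATA6 at 20.5 ± 1.55, GATA4 at 14.2 ± 1.23, TBX18 at 10.5 ± 2.64 and MEIS2 at 1.88 ± 0.482. Under the floor were MUC16, the CA125 antigen, TCF21 and the lubricant PRG4. MUC16 had 1 count in all. The remaining 4, THBD, MEIS1, GPM6A and HP, reached 3 counts in a library but not 1 TPM in all of them, THBD being nearest at 0.941 ± 0.150.

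Markers of squamous and glandular lung cancer were mostly unread. Over all protein-coding genes 27.6% were under the floor and 56.7% were read throughout. Of 16 squamous markers 11 were under the floor, and TP63, SOX2 and PAX9, the regulators of squamous epithelium, had no count in any library, nor had KRT5, KRT6A, KRT6B, KRT14, DSG3 or SPRR1B. The 4 read throughout were the desmosomal cadherin DSC3 at 28.5 ± 6.73 TPM, S100A2 at 10.9 ± 2.65, the envelope protein IVL at 1.52 ± 0.504 and TRIM29 at 1.27 ± 0.0556. None of 11 lung epithelial markers was read throughout, and NKX2-1, FOXA1, SFTPA1, SFTPB, SFTPC and SCGB1A1 had no count.

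Of 14 carcinoma surface markers and their regulators, 2 were read throughout, the splicing factor ESRP2 at 15.7 ± 1.81 TPM and MUC1 at 4.24 ± 0.482. ESRP2 overlaps NFATC3 on the opposite strand, which holds more counts, and the strand setting of the counting is not given in the sources used here. EPCAM, the epithelial adhesion molecule, had 1 count in each library and CDH1, E-cadherin, 1, 0 and 1.

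The mesenchymal list was read almost in full, at 14 of 15 genes, where 56.7% of all protein-coding genes were. It was written with earlier results of these data known, so the count by itself does not set the list apart. Vimentin (VIM) stood at 2092, 2097 and 1957 TPM, above KRT18 at 2058, 1887 and 1588 in each library, although their ranges overlapped. The secreted SPARC averaged 850 ± 87.7 TPM, smooth muscle actin ACTA2 81.6 ± 1.52, N-cadherin CDH2 59.6 ± 10.2, the actin binder TAGLN 32.1 ± 2.19 and CDH11 13.3 ± 3.09. S100A4 averaged 4.91 ± 0.855 TPM and overlaps S100A3 on the same strand, which holds more counts. The regulators of mesenchymal change were SNAI2 at 25.4 ± 2.92 TPM, TWIST2 at 25.4 ± 2.56, TWIST1 at 24.3 ± 1.78, ZEB1 at 6.97 ± 2.24, ZEB2 at 3.56 ± 1.09 and SNAI1 at 2.44 ± 0.341. Fibronectin (FN1), often a leading product of mesenchymal cells, stood at only 1.80, 1.86 and 2.96 TPM, and PRRX1 was under the floor.

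Other cell types had few markers read throughout, where 56.7% of all protein-coding genes were. Of 10 fibroblast markers 3 were read throughout, THY1 at 270 ± 6.04 TPM, the receptor PDGFRB at 21 ± 4.36 and COL1A1 at 1.37 ± 0.0446, while LUM had no count and DCN 1 count in all. The immune list gave 2 of 10, the lysosomal CD68 at 55.7 ± 4.19 TPM and CD14 at 1.31 ± 0.202, with PTPRC, which marks all leukocytes, at 2 counts in each library and CD3E, CD3D and MS4A1 at 0. The endothelial list gave 1 of 8, ROBO4 at 1.24 ± 0.178 TPM.

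**Figure D2:**
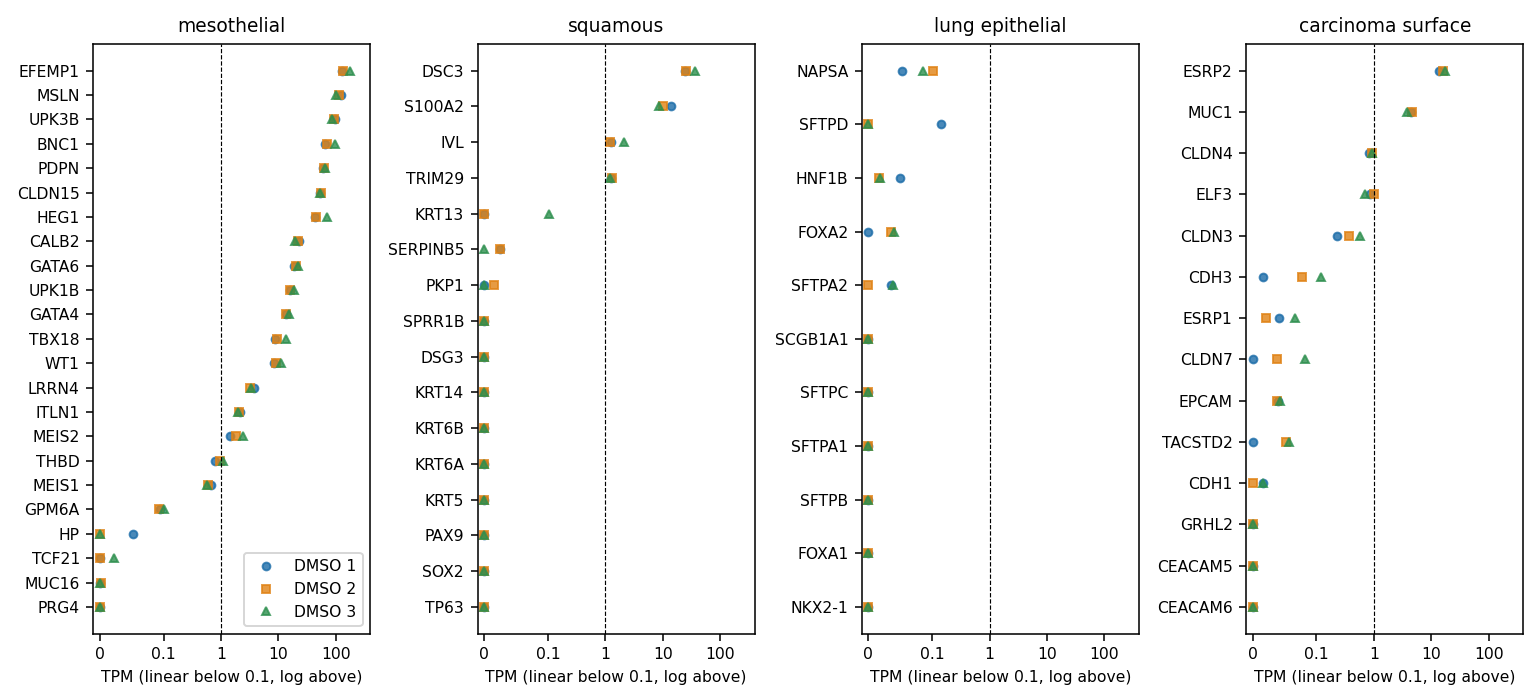
Levels of mesothelial, squamous, lung epithelial and carcinoma surface markers in DMSO 1, 2 and 3, in TPM on an axis that is linear below 0.1 and logarithmic above, with a dashed line at 1 TPM. Of the mesothelial markers 16 lie above the line in every library, against 4 squamous, 0 lung epithelial and 2 carcinoma surface markers.

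Keratins form filaments as pairs of a type I and a type II protein. Of 54 protein-coding keratin genes, 10 were read throughout, 37 were under the floor and 30 had no count. Over all protein-coding genes these shares were 56.7%, 27.6% and 18.3%. KRT18 of type I led at 2058, 1887 and 1588 TPM, followed by KRT19 of type I at 1463, 1342 and 1118, KRT8 of type II, the usual partner of KRT18, at 1287, 1219 and 1143, and KRT7 of type II at 1137, 1103 and 906. KRT18 stood above the rest in every library, and KRT7 stood below the others in every library, whereas KRT19 exceeded KRT8 in DMSO 1 and 2 but not in DMSO 3. These 4 keratins of simple epithelium made up 89.7% ± 0.788 of keratin TPM.

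The fifth was KRT34, a type I keratin of hair, at 490, 486 and 468 TPM, a spread far smaller than its distance from KRT7 above it and KRT10 below it. KRT33B, a neighbouring hair keratin on chromosome 17, stood at 15.8 ± 1.17 TPM, with 27.7% of its 50-base words shared with other genes, against 11.4% in KRT34. The others were KRT10, the type I keratin of upper epidermis, at 73.4 ± 11.6 TPM, KRT80 at 40.1 ± 4.72, KRT15 at 4.74 ± 0.127 and KRT79 at 1.21 ± 0.00982, the member just above the limit. KRT32 lay just below it, at 0.719 ± 0.170 TPM. The hair keratins KRT31, KRT33A, KRT36, KRT37 and KRT38 did not exceed 2 counts in any library, although all lie in the same gene cluster as KRT34.

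Type I keratins summed to 3729 ± 436 TPM and type II to 2307 ± 189, a ratio of 1.67, 1.62 and 1.55 in the 3 libraries. KRT8 and KRT18 lie side by side on chromosome 12 and overlap on opposite strands, so their counts may not be wholly separate. RefSeq promoters were at hand for 34 keratin genes, and TATAAA on either strand occurred in 20 of them, or 58.8%, including both hair keratins shown above, against 9.19% of 15070 protein-coding promoters. Among keratins the motif was in 3 of 5 promoters of genes read throughout and in 17 of 28 of genes under the floor.

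Most tumour suppressors were read. Of 51 genes listed, 45 were read throughout, 3 were under the floor and 3 lay between. Over all protein-coding genes 56.7% were read throughout and 27.6% were under the floor, which is the comparison for the suppressor groups below as well. Those under the floor were NF2 (chr22:29603556-29698598), at 0, 1 and 1 counts, BAP1 (chr3:52401008-52410008), a deubiquitinase of histone H2A, at 1, 0 and 0, and CDH1, whose counts are given above. NF2 and BAP1 were thus not detectable at this depth.

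CDKN2A (chr9:21967753-21995301), which encodes the CDK4 inhibitor p16 and the protein p14ARF, had 20, 22 and 17 counts, or 0.439, 0.478 and 0.404 TPM. Its neighbour CDKN2B, the inhibitor p15, stood at 8.53, 9.77 and 10.2 TPM and MTAP, an enzyme of methionine salvage, at 7.17, 7.32 and 8.87, so both flanking genes stood above CDKN2A in each library. The antisense transcript CDKN2B-AS1 overlaps CDKN2A and CDKN2B and holds many more counts than CDKN2A, so reads of either strand may have entered the count of CDKN2A. Within the INK4 family, CDKN2C (p18) took 58.2% ± 1.22 of TPM, CDKN2D (p19) 27.9% ± 2.71, CDKN2B 13.3% ± 1.67 and CDKN2A 0.615% ± 0.0450. The remaining pair between the limits were FHIT, a hydrolase at a fragile site, at 0.707 ± 0.0818 TPM and PTCH1, the Hedgehog receptor, at 0.587 ± 0.0995.

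Pocket proteins and CDK inhibitors of the CIP family were all read throughout. CDKN1A, the CDK inhibitor p21, stood at 350, 350 and 369 TPM and RB1, which holds back entry into S phase, at 30.2, 34.0 and 52.3. CDKN1B (p27) averaged 64.8 ± 6.76 TPM, RBL2 13.5 ± 4.41, RBL1 7.37 ± 1.71 and CDKN1C 3.79 ± 0.846. RB1 was highest in DMSO 3, the library with more signal in long genes.

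Chromatin regulators stood lower. Besides BAP1, all 12 were read throughout: SMARCA4 at 30.05 ± 3.20 TPM, SETD2 at 20.2 ± 4.52, ARID1A at 16.1 ± 4.35, KDM6A at 10.4 ± 2.84, SMARCB1 at 10.0 ± 0.486, SETDB1 at 9.57 ± 0.674, SMARCA2 at 6.97 ± 1.57, KMT2D at 5.37 ± 2.08, ARID2 at 5.15 ± 1.44, KMT2C at 4.08 ± 1.29, ARID1B at 3.10 ± 0.730 and PBRM1 at 2.65 ± 0.661. PBRM1 and SETD2 lie on the same arm of chromosome 3 as BAP1. PBRM1 overlaps GNL3, and SETDB1 overlaps CERS2, on the opposite strand, partners that hold more counts. ASXL1, which forms a complex with BAP1, averaged 38.5 ± 7.68 TPM and made up 81.2% ± 1.88 of its family.

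In the Hippo pathway 7 of 8 genes were read throughout, all but NF2: the kinases STK4 at 26.9 ± 5.48 TPM and STK3 at 7.88 ± 1.83, their scaffold SAV1 at 12.2 ± 2.40, LATS2 at 14.1 ± 2.64 and LATS1 at 5.58 ± 1.95, RASSF1 at 13.0 ± 0.295 and the giant cadherin FAT1 at 17.5 ± 6.57. Merlin belongs to a family with ezrin, radixin and moesin, and EZR stood at 817, 815 and 905 TPM, or 69.0% ± 3.87 of that family, MSN at 26.9% ± 3.04 and RDX at 4.08% ± 0.832. Among other suppressors, KEAP1, which turns over NRF2, averaged 83.1 ± 2.72 TPM, the helicase DDX3X 64.2 ± 18.4, STK11 25.2 ± 0.423, BRCA1 18.5 ± 4.95, VHL 16.9 ± 5.14 and CYLD 12.7 ± 2.16. Those under 10 TPM were TSC2, TSC1, NF1, SMAD4, ATM, APC, BRCA2 and FBXW7, from 9.04 ± 1.09 in TSC2 to 2.80 ± 0.626 in FBXW7, and NF1 contains EVI2A on the opposite strand, which holds more counts.

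The neighbourhoods of CDKN2A, BAP1 and NF2 were read out gene by gene. Within 1 Mb of NF2, 30 of 45 protein-coding genes were read throughout and 10 were under the floor. NIPSNAP1, 22.2 kb before NF2, stood at 74.0 ± 2.30 TPM and ZMAT5, 32.4 kb beyond it, at 14.2 ± 2.16, so that of the nearest genes only CABP7, a neuronal calcium binder with 1 count in all, shared the low reading of NF2. Neurofilament NEFH and RFPL1 on the other side had no count.

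Round BAP1, 31 of 56 protein-coding genes within 1 Mb were read throughout and 16 were under the floor. The share read throughout, 55.4%, was close to that of the whole table. The nearest genes read throughout were GLYCTK, 105.8 kb to one side at 2.36 ± 0.167 TPM, and NISCH, 45.1 kb to the other at 13.0 ± 1.33. Between them lay DNAH1, a ciliary dynein with 61, 102 and 151 counts, BAP1, PHF7, SEMA3G and TNNC1. PHF7, whose start lies 652 bases from that of BAP1, had no count in any library, and SEMA3G had 0, 0 and 2. PBRM1, 135.3 kb beyond BAP1, was read in each library at 210, 258 and 316 counts.

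Round CDKN2A, 17 of 43 protein-coding genes within 5 Mb, or 39.5%, were read throughout and 19 were under the floor. All 13 interferon alpha genes of the cluster had no count, as had IFNW1, but IFNB1 had 5, 4 and 3 counts. MTAP, 30.1 kb away, and CDKN2B, 7.60 kb away, were the nearest genes read throughout. KLHL9, which lies between interferon alpha genes of the cluster, was read at a mean of 10.7 TPM, and FOCAD, beyond the cluster, at 8.22 TPM. The DNA of these loci was not measured, and loss of a gene and silence of a gene cannot be told apart from RNA. For comparison, 56.7% of protein-coding genes in the whole table were read throughout and 27.6% were under the floor.

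**Figure D3:**
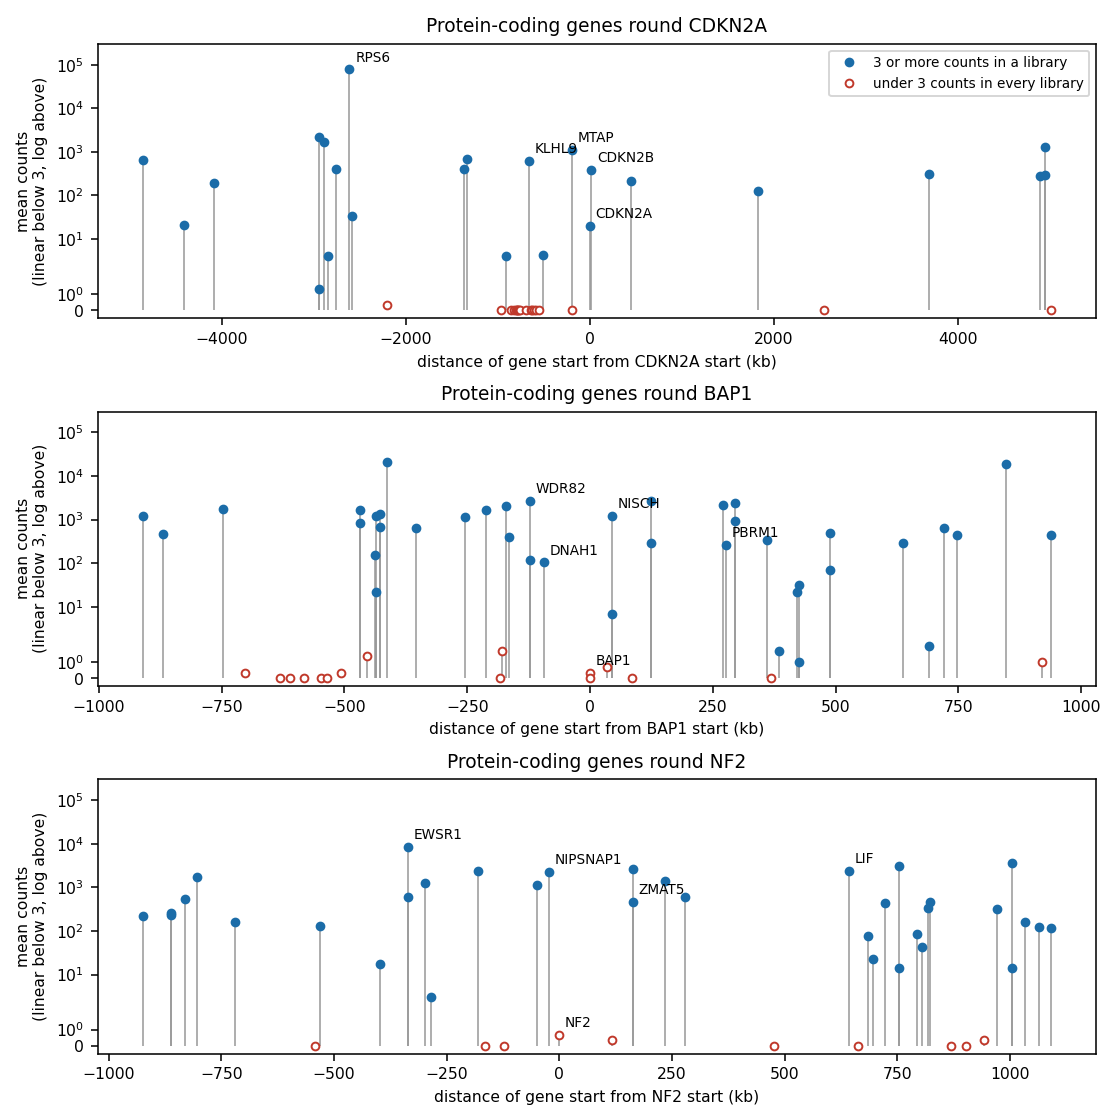
Mean counts of protein-coding genes against the distance of their starts from those of CDKN2A, BAP1 and NF2, in kb, with an axis linear below 3 counts and logarithmic above. Open red points are under 3 counts in every DMSO library (19, 16 and 10 genes), and filled blue points reach 3 counts in at least 1 library, among them CDKN2B and MTAP beside CDKN2A and NIPSNAP1 beside NF2.

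The CG content of the promoters was set beside the levels. Among 15070 protein-coding genes with a RefSeq promoter, the median number of CG in 250 bases was 22 in genes read throughout and 5 in genes under the floor. At least 15 CG occurred in 76.2% of the former, 23.9% of the latter and 58.3% of all. With 31 CG, the NF2 sequence shown above was above the median of genes that were read, although NF2 was under the floor, and CDKN2A with 24 CG was above it too. The motif TATAAA on either strand was in 5.01% of promoters of genes read throughout and in 18.6% of those under the floor. RefSeq gives 1 start per gene in this table, and a gene read from another start would be described by the wrong window. The CDKN2A window lies just beyond the upstream end of the deposited gene span, so it does not describe any start inside the gene.

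Growth factor receptors were dominated by few genes. Of 58 receptor tyrosine kinases 25 were read throughout and 14 were under the floor, with no count for INSRR, KIT, EPHA3 and EPHA8. Over all protein-coding genes 27.6% were under the floor, close to the share of the receptors. The share read throughout was 56.7%, higher than among the receptors. AXL (chr19:41219223-41261766), a receptor of the TAM group, was the highest at 246, 249 and 294 TPM. MET, the receptor of hepatocyte growth factor, stood at 146, 160 and 218, EPHA2, an ephrin receptor, at 130, 129 and 164, and EGFR at 71.9, 77.6 and 115. In each library the order was AXL, MET, EPHA2, EGFR, although the ranges of MET and EPHA2 overlapped, and all 4 were highest in DMSO 3. AXL, MET and EPHA2 held 61.1% ± 0.485 of receptor TPM, and the 5 highest 75.1% ± 0.257.

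FGFR1 followed at 45.9 ± 5.03 TPM, with a range that overlapped that of the collagen receptor DDR2 at 38.2 ± 8.76. DDR1, also a collagen receptor, averaged 24.2 ± 2.79 TPM, PDGFRB 21 ± 4.36, ERBB2 19.5 ± 1.19, the ephrin receptors EPHB2 18.3 ± 2.41 and EPHB4 17.3 ± 0.827, and the Wnt co-receptor RYK 15.1 ± 2.21. Neighbours in that run from DDR1 to RYK overlapped in range. DDR1 stood above PDGFRB and EPHB4 above RYK in each library, whereas the order of PDGFRB, ERBB2, EPHB2 and EPHB4 changed between libraries. ERBB2 overlaps MIEN1 on the opposite strand, which holds more counts. Between 5 and 10 TPM on average lay PTK7, LMTK2, TYRO3, FGFR3, ERBB3, ROR2, FGFR4, IGF1R and ROR1. Just above the limit of 1 TPM stood STYK1 at 1.15 ± 0.143 and just below it MST1R at 0.962 ± 0.104.

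Within families the receptors were unevenly read. Of the TAM receptors, AXL stood above TYRO3 at 8.54 ± 1.24 TPM and MERTK at 0.491 ± 0.105. Of the ERBB receptors, EGFR stood above ERBB2, ERBB3 averaged 8 ± 1.03 TPM and ERBB4 had 2, 1 and 1 counts. PDGFRB was read and PDGFRA was not, at 3, 3 and 1 counts, and none of the VEGF receptors reached 1 TPM, KDR having 6, 7 and 10 counts, FLT1 4, 3 and 2, and FLT4 1, 0 and 1. All 3 neurotrophin receptors were below 1 TPM.

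Of 63 ligands 34 were read throughout, close to the 56.7% of all protein-coding genes, so the count does not set the list apart. GAS6, the ligand of AXL, was the highest at 393, 375 and 366 TPM, so that receptor and ligand were both at the head of their lists. VEGFB stood at 245, 240 and 197 TPM, midkine (MDK) at 135, 133 and 102, and FGF2, a ligand of FGFR1, at 107, 115 and 153. HGF, the ligand of MET, had no count in any library, although MET was the second receptor. EFNB1 led the ephrins at 34.1 ± 3.36 TPM, and HBEGF led the ligands of EGFR at 23.5 ± 1.48.

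In other ligand families, CSF1, whose receptor CSF1R had 2, 3 and 2 counts, averaged 41.1 ± 3.62 TPM. BDNF averaged 16.4 ± 1.92, and its receptor NTRK2 had 1, 0 and 2 counts. WNT5A, a ligand of the ROR receptors, averaged 10.9 ± 1.32 TPM, NRTN of the GDNF family 5.56 ± 1.53 and the MET-related ligand MST1 1.59 ± 0.204, where MST1 overlaps APEH on the opposite strand, a gene with many more counts. IGF1 and IGF2 did not reach 1 TPM, nor did the TIE ligands ANGPT1, ANGPT2 and ANGPT4, all under the floor. Ligands in culture also come from serum, which was not measured.

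**Figure D4:**
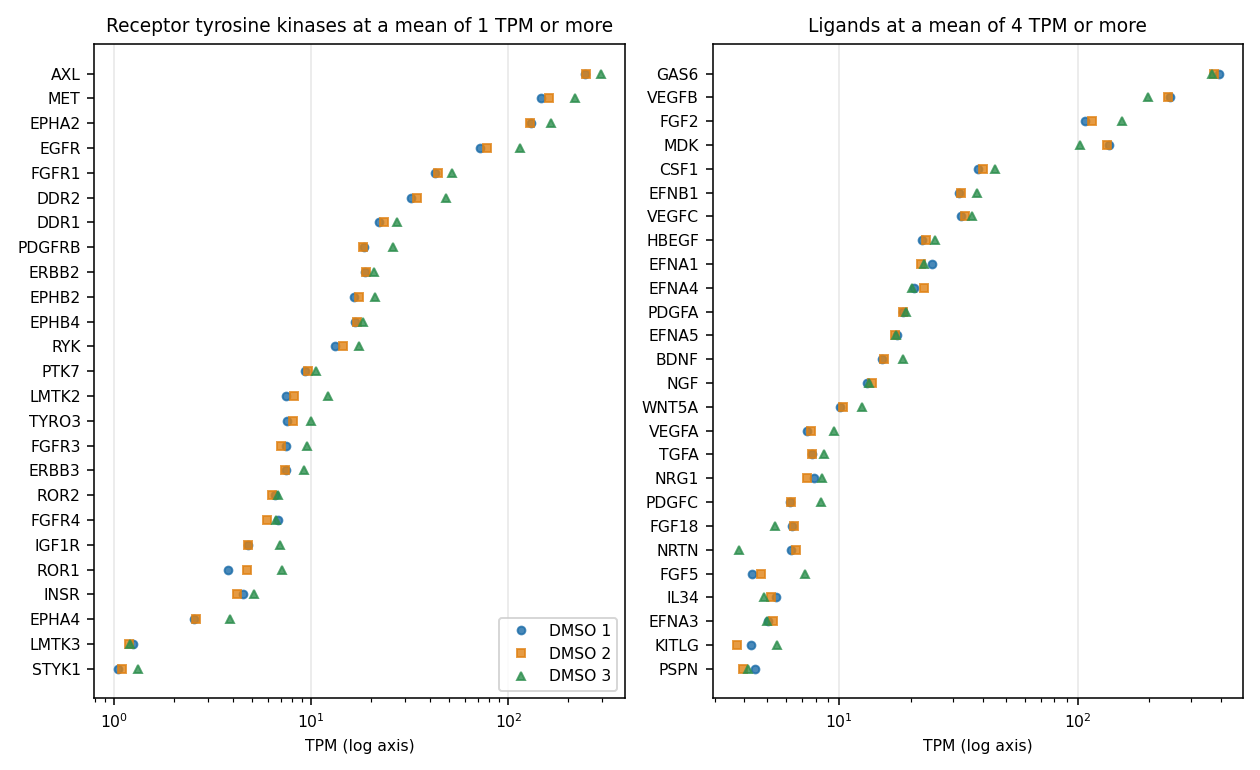
Levels of receptor tyrosine kinases at a mean of 1 TPM or more (left) and of ligands at a mean of 4 TPM or more (right) in DMSO 1, 2 and 3, on log axes. AXL at 263 TPM on average leads the receptors and GAS6 at 378 TPM the ligands, and DMSO 3 lies to the right of the other libraries in most receptors.

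Receptors of the TGF-beta superfamily were read in 9 of 14 cases, led by the co-receptor ENG at 77.9 ± 0.871 TPM and ACVR1 at 37.9 ± 5.36. TGFBR2 averaged 14.8 ± 3.86 and TGFBR1 8.82 ± 1.33. Of 33 matrix and protease genes, 32 were read throughout, all but MMP2 at 0.926 ± 0.132 TPM. Over all protein-coding genes 56.7% were read throughout, so the 9 of 14 receptors are not set apart by their number. The matrix genes were chosen with earlier results of these data known, so their 32 of 33 cannot be weighed against that share. Those described here include CCN1, a matricellular target of YAP1, at 1012, 1005 and 1051 TPM, SPARC, the protease inhibitor TIMP2 at 579 ± 66.8, the collagen crosslinking enzymes LOXL2 at 352 ± 48.8 and LOX at 166 ± 21.6, and TGFBI at 162 ± 11.5. The basement membrane chains LAMB1 at 122 ± 24.6 TPM, LAMC1 at 112 ± 27.8 and COL4A2 at 106 ± 15.1 were thus far above COL1A1, and the proteases PLAU at 10.5 ± 0.448 and PLAT at 9.02 ± 1.03 stood lower.

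Paralogue use was set out for 58 families, as the share of family TPM held by each member. A family here means only the members listed for it. Larger families, such as galectins, glucose transporters and classical cadherins, have members that were left out, and the shares do not cover them. The leading member held 90% or more in 18 families, 50 to 90% in 36 and under 50% in 4. It was the same gene in all 3 libraries in 55 families. The coding sequences of 2 such pairs are shown because they differ in how evenly their members were read. TMSB10 on chromosome 2 and TMSB4X on chromosome X encode beta-thymosins with coding sequences of 135 bases, of which 72.6% are identical, and capitals mark the 37 bases that differ. The first 150 of 1128 coding bases of ACTB on chromosome 7 and ACTG1 on chromosome 17 hold 23 differing bases, and identity over the whole is 91.2%. These sequences are from GENCODE release 29 and start at the initiation codon.
TMSB10: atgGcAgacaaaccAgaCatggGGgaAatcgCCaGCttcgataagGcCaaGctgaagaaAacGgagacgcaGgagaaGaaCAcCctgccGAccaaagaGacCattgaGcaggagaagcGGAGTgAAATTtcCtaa
TMSB4X: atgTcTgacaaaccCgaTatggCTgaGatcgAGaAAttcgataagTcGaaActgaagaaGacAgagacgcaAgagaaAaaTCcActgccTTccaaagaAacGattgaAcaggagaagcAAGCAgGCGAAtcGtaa
ACTB: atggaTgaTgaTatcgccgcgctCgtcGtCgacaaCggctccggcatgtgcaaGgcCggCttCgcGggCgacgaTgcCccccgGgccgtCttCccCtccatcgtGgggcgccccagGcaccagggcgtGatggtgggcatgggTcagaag
ACTG1: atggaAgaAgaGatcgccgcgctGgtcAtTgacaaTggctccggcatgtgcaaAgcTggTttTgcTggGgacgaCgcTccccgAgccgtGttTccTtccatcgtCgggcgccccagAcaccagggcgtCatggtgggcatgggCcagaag

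In the cytoskeleton, TMSB10 held 95.4%, 95.5% and 94.4% of thymosin TPM, with TMSB4X at 639, 592 and 554 TPM. ACTB held 68.4% ± 0.303 of cytoplasmic actin and ACTG1 31.6% ± 0.303. Non-muscle myosin was almost wholly MYH9, at 98.2% ± 0.214, and caveolin mostly CAV1, at 88.2% ± 0.154, with CAV2 at 11.7% ± 0.183. Of LGALS1 and LGALS3, the galectins listed, LGALS1 held 92.7% ± 0.487. Alpha-actinins were shared between ACTN4 at 66.2% ± 1.24 and ACTN1 at 33.6% ± 1.25.

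Tubulins were led by TUBA1B, at 70.5% ± 0.537, over TUBA1C at 25.9% ± 0.335, and by TUBB, at 58.5% ± 1.36, over TUBB4B at 26.4% ± 1.15 and TUBB6 at 12.0% ± 0.0629. Of the 50-base words of TUBA1B, 23.1% occur in its own family, so part of the split between TUBA1B and TUBA1C depends on how shared reads were counted. Tropomyosin had no fixed leader: TPM2 held 38.9%, 36.7% and 29.3% and TPM1 28.5%, 29.7% and 31.5%, so that TPM1 exceeded TPM2 in DMSO 3 alone. Its other members were TPM4 at 19.9% ± 2.42 and TPM3 at 15.2% ± 1.18.

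In glycolysis several families were read almost wholly from 1 member. PKM and PGK1 held 100% of their families, PGAM1 99.96% ± 0.0177, ALDOA 98.5% ± 0.0830, ENO1 97.6% ± 0.109 and the glucose transporter SLC2A1 97.1% ± 0.235. HK1 held 83.4% ± 1.59 of hexokinase and HK2 16.6% ± 1.59, and phosphofructokinase was PFKP at 66.4% ± 0.395, PFKL at 19% ± 0.604 and PFKM at 14.6% ± 0.998. Lactate dehydrogenase was LDHB at 1096, 1061 and 1065 TPM against LDHA at 791, 799 and 854, or 56.9% ± 1.30 of TPM for LDHB, but by counts without length LDHA led with 60.6% ± 1.26. In mitochondrial metabolism COX4I1 and COX7A2 held 100% of their families, IDH1 54.2% ± 3.22 against IDH2 at 45.8% ± 3.22, and SLC25A6 52.4% ± 0.601 of the ADP/ATP carriers against SLC25A5 at 46.8% ± 0.582.

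Ribosomal and translation paralogues were led by RPL3 at 100%, EEF1A1 at 99.8% ± 0.0353, RPS27 at 92.5% ± 0.303 and RPL39 at 92.1% ± 0.597, whereas RPL22L1 took 25.3% ± 0.667 beside RPL22 at 74.7% ± 0.667. By counts without length RPS27 held only 58.8% ± 1.05 and RPS27L 41.2% ± 1.05. MAGOH of the exon junction complex held 87.1% ± 0.501 beside MAGOHB at 12.9% ± 0.501.

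In the cell cycle, CCND1 held 88.5% ± 2.03 of D cyclins, with CCND3 at 10.7% ± 1.82, CDK4 held 90.7% ± 1.62 beside CDK6, and CDKN1A 83.9% ± 0.757 beside CDKN1B at 15.2% ± 0.969. RB1 held 65.0% ± 0.816 of pocket proteins, RBL2 22.5% ± 0.863 and RBL1 12.5% ± 0.771.

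Several signalling families were split between members. MAP2K2 held 69.6% ± 4.56 against MAP2K1 at 30.4% ± 4.56. PIK3CD, a PI3K catalytic subunit best known from leukocytes, held 49.4% ± 0.216 against PIK3CB at 40.1% ± 0.524 and PIK3CA at 10.5% ± 0.688. PIK3CD overlaps CLSTN1 on the opposite strand, which holds more counts. RHOA held 73.0% ± 1.48 beside RHOC at 21.7% ± 1.76, RAC1 86.5% ± 0.394 beside RAC2 at 11% ± 0.261, and CALM2 69.8% ± 1.63 beside CALM3 at 21% ± 1.12.

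Among survival, Hippo and chromatin families, BCL2L1 at 53.2%, 50.2% and 46.7% and MCL1 at 40.9%, 44.0% and 47.2% exchanged places in DMSO 3, and BCL2 itself was 0.435% ± 0.0181. YAP1 held 93.1% ± 0.380 beside WWTR1, STK4 77.4% ± 0.488 beside STK3 at 22.6% ± 0.488 and LATS2 72.2% ± 3.11 beside LATS1 at 27.8% ± 3.11. Of the TEAD factors, TEAD4 held 47.6% ± 4.60, TEAD1 27.8% ± 5.33 and TEAD3 22.7% ± 0.781. SMARCA4 held 81.3% ± 1.73 beside SMARCA2, ARID1A 83.8% ± 0.448 beside ARID1B, ASXL2 stood at 18.8% ± 1.87 beside ASXL1, and STAG2 65.0% ± 1.12 beside STAG1. CREBBP and EP300, at 51.7% ± 2.81 and 48.3% ± 2.81, changed order in DMSO 3. Lineage factors were GATA6 at 59.0% ± 0.867 and GATA4 at 41.0% ± 0.867. CDH2 at 81.8% ± 1.01 with CDH11 at 18.1% ± 0.961 made up nearly all of the classical cadherins listed, which were CDH1, CDH2, CDH3 and CDH11.

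Length mattered for these shares. By counts without division by length the leading member changed in 8 families, among which LDHB gave way to LDHA, TPM2 to TPM1, PIK3CD to PIK3CB, BCL2L1 to MCL1 and TEAD4 to TEAD1. TPM2 then held 11.6% ± 2.18 and TEAD4 22.8% ± 4.11. The ranges of the leading and the second member overlapped in level in 4 families, those led by TPM2, PIK3CD, BCL2L1 and CREBBP.

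**Figure D5:**
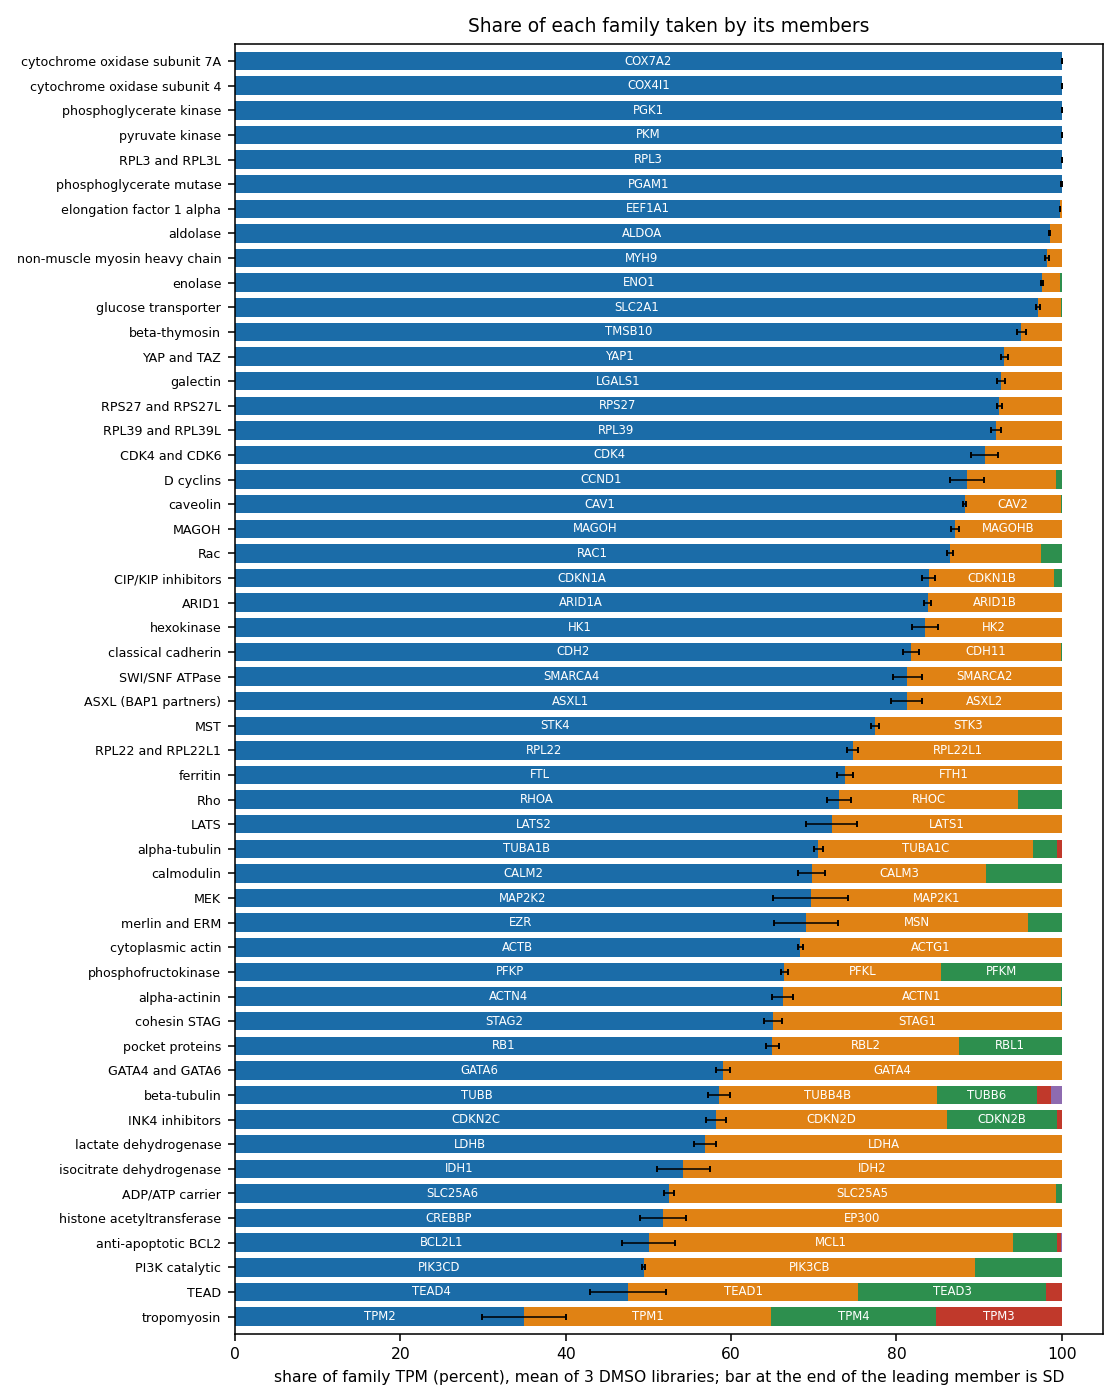
Share of family TPM in percent, mean of 3 DMSO libraries, for 52 of the 58 paralogue families, ordered by the share of the leading member, with the SD of that share as a black bar. Colours mark rank within the family, blue for the highest, and the leading share runs from 100% in pyruvate kinase to 35.0% in tropomyosin.

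The spread between libraries was small for most genes and large for few. The median coefficient of variation over the 10739 genes was 9.29%, and 8.38% after counting error was taken off. The 10 genes with the largest remaining spread among all types were BLOC1S5-TXNDC5, with 0, 0 and 342 counts, ZBED6, with 2, 13 and 310, the pseudogenes SEC22B3P, AC025594.1, PKD1P5, AC126755.1 and PPIAP22, the unnamed coding genes AC078927.1 and AC023055.1, and SRCAP, a chromatin remodeller with 223, 217 and 808 counts. DMSO 3 was the highest library in 9 of them and had no count in AC025594.1, at 342, 219 and 0. BLOC1S5-TXNDC5 joins the exons of a pair of adjacent genes and ZBED6 lies within ZC3H11A, so both share sequence with other genes, and none of the 10 is among the markers, receptors or suppressors described above.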

How the data were processed

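The 3 DMSO libraries of NCI-H226 were grouped by sample title. The deposited table holds counts per gene in whole numbers, per the file headers, beside TPM and RPKM computed by the authors, and a scaled coverage signal, deposited under the name CPM, that was not used for levels. The deposited counts were 4.60% to 5.49% lower than the library totals that the RPKM columns imply. The submitters' processing notes name hg38 as the build. The sources used here do not state an aligner, a counting program, its strand setting or an annotation. GENCODE release 29 held 96.4% of the gene identifiers and served for gene type, and overlap was taken from deposited coordinates.

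Levels are the authors' TPM, mean ± SD (n = 3). Python 3.11.15, pandas 2.3.3, numpy 2.4.6 and statsmodels 0.14.6 were used, and the length trend was a lowess fit with span 0.5, tested on simulated data. With 1 group there was no test between groups, and an exact permutation test of 3 values against 3 cannot go below 0.1. The members and lists were chosen with earlier results of these data known.

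Named genes were the markers, the 30 highest genes, keratins at 1 TPM or more and those beside that limit, every suppressor, receptor tyrosine kinases at 5 TPM or more or without counts, leading ligands and paralogues with those at 10% or more, lineage markers at 1 TPM or more, genes round CDKN2A, BAP1 and NF2, and the 10 most variable genes. Other genes named, such as TGF-beta receptors and matrix genes, were chosen after their values were seen. Alternatives were other TPM limits, counts without length, median-of-ratios size factors, removal of the length trend, and each library left out. Some genes that this rule names, and paralogue families that hold them, are not reported here.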

Additional observations from a re-analysis of the deposited data

How the results depend on the processing

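No paired analysis was possible because a single group was described. The shares of the highest genes depended on the measure. Without mitochondrial genes the 10, 100 and 1000 highest took 10.4%, 29.6% and 64.2%, and by counts without length 7.58%, 24.4% and 56.5%. By counts the mitochondrial share was 5.16% and the ribosomal protein share 8.86%. Genes read throughout numbered 14413 at 0.5 TPM, 9413 at 5 TPM and 12706 by CPM, all within 1.5 times of 13015, and receptors numbered 28 and 19, keratins 11 and 8, at 0.5 and 5 TPM. With each library left out, genes read throughout ran from 13154 to 13283, with 25 receptors and 10 keratins each time. All 318 levels moved by less than 1 SD with other size factors or with the length trend taken out. The trend was fitted to deviations from each gene's mean, so its removal can move that mean only little. With any library left out the outcome was fixed in advance, since dropping 1 of 3 values cannot move their mean by 1 SD. By counts, 47 of 58 leading family shares moved by more than 1 SD. Depth limits the genes under the floor, where no fold can be given.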
